A study of Canis lupus familiaris with 3 samples.

Results

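Solute carriers are the membrane proteins, grouped in numbered SLC families by sequence, that move sugars, amino acids, nucleosides, metals, inorganic ions and organic acids across plasma and organelle membranes. The 77 genes described here are those with a single gene symbol that starts with SLC and a digit and with a value on all 3 arrays, out of 87 such symbols on the array and of 5508 named genes measured. SLC1A4, SLC1A5, SLC2A1 and SLC2A3 were left out of the set. The members fall into 38 families, which were grouped into 8 substrate classes by family number, so that a class can hold a member with another substrate, such as the iodide transporter SLC5A5 among vitamin and organic ion families. By symbol, 2 of them are no carriers: SLC4A1AP encodes a protein named for its association with an anion exchanger, and SLC6A10P is a pseudogene.

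The study set MDCK-E47 transfectants against MDCK-CMV control cells, both grown in the same serum-containing medium. MDCK is a line of epithelial cells derived from a dog kidney, and E47, a helix-loop-helix transcription factor, is the E-cadherin repressor of the series title. The labels do not say whether the transfectants were 1 clone or a pool, nor whether the extractions came from separate cultures, so the p-values measure only the spread between these extractions. Extraction 1 was put on 1 array, with E47 RNA in Cy5 and control RNA in Cy3. Extraction 2 was put on 2 arrays, with E47 RNA in Cy3 on one and in Cy5 on the other.

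The arrays carry human cDNA clones, and each value is the log2 ratio of E47 over control, averaged over the spots of a gene. Where 3 values are given in a row, they are those of extraction 1, of the Cy3 array of extraction 2 and of its Cy5 array. The direction is likely but not stated: the labels list E47 cells as the first channel, and E-cadherin (CDH1), the labelled target of E47, gave −3.52, −3.83 and −3.47 on the 3 arrays. Log base 2 is a reading of the values, not a statement of the labels, and folds would be larger if the base were natural. Ratios say nothing of how strongly a gene was expressed, and human clones of a gene family can bind several related dog transcripts. Of 7 epithelial marker genes 6 were measured and all 6 fell, with a median of −1.85. None of the 3 measured kidney tubule markers passed the test. Of fibroblast and leukocyte markers, COL1A2 at 0.68 and PTPRC at 1.03 rose, while THY1 at 0.022 and CD79A at −0.20 did not pass. The part of any other cell type in the carrier results was not tested, and fewer cells of a type and less RNA per cell cannot be told apart.

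In epithelia, carriers are placed on either the apical or the basolateral side, and many of those in the plasma membrane use the sodium gradient that the sodium pump builds. Other families sit in organelles: most SLC25 proteins serve transport across the inner mitochondrial membrane, SLC30 proteins load zinc into vesicles and the Golgi, and SLC35 proteins bring nucleotide sugars to the glycosylation enzymes. Kidney tubule cells are known for the breadth of their carrier repertoire, since reabsorption and secretion run through it.

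A small share of the solute carriers passed the test, as was so for all named genes. With limma, an adjusted p under 0.05 was reached by 5 of 77 members (6.49%), of which 4 rose and 1 fell in E47 cells. Among all named genes 9.19% passed, 5.34% higher and 3.85% lower. The genes that rose were SLC12A9, SLC25A32, SLC30A6 and SLC38A6, and the one that fell was SLC25A3. These counts depend on the set: of the genes left out, SLC1A5, SLC2A1 and SLC2A3 passed as lower, and SLC1A4 did not pass. The median log2 ratio over the members was −0.029, against −0.017 over all named genes, and 65 members (84.4%) lay within 0.5 of 0, against 82.9% of all named genes. At an unadjusted p under 0.05 there were 26 members (33.8%), against 35.6% of all named genes. A change of at least 2-fold in 1 direction on every array was reached by SLC12A9 alone among the 77, against 2.21% of all named genes.

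**Figure D1:**
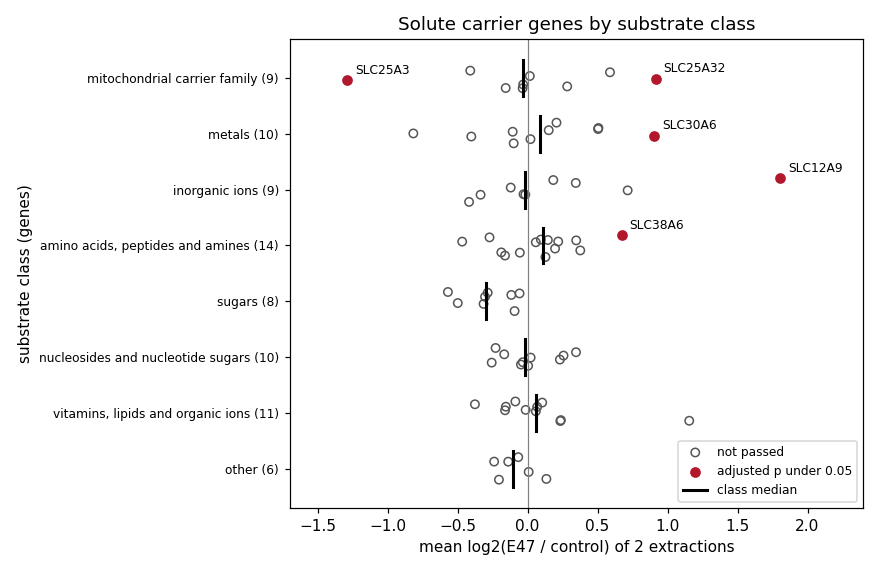
Mean log2 ratio of E47 over control (x axis, 2 extractions) for each of the 77 solute carrier genes, by substrate class (y axis, number of genes in brackets). Filled points passed the test, open points did not, and black bars are class medians. The 5 genes that passed lie in 4 of the 8 classes, and the sugar class has the lowest median, at −0.29.

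The call list depended on which arrays were used. Without the Cy5 array of extraction 2, SLC12A9 kept its call and the other 4 genes lost theirs, at limma adjusted p-values from 0.0587 to 0.111, while the calls among all named genes were 74 higher and 35 lower. Without the Cy3 array, all 5 kept their calls and 6 further members passed, and the calls among all named genes were 448 higher and 471 lower. Across the 77 members, extraction 1 correlated with the mean of extraction 2 at r = 0.782, against 0.827 over all 5508 named genes. This correlation is across genes, which share the arrays and are not independent replicates.

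**Figure D2:**
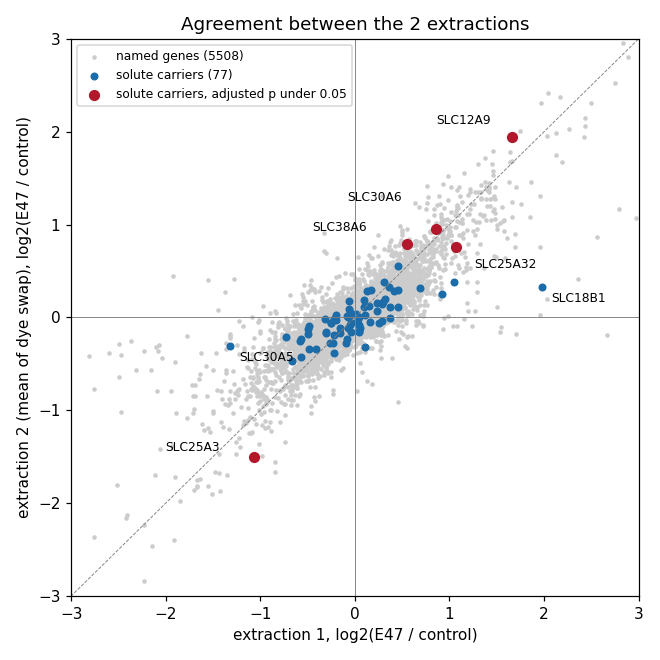
Log2 ratio of E47 over control in extraction 1 (x axis) against extraction 2, the mean of its dye swap (y axis), for named genes (grey), solute carriers (blue) and the solute carriers that passed (red); the dashed line marks equal values, and 12 named genes lie outside the axes. SLC12A9 and SLC25A3 are beyond 1 in size in both extractions, while SLC18B1, SLC30A5, SLC25A32 and SLC26A2 are so in extraction 1 only.

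Among carriers of inorganic ions, SLC12A9 rose more than any other member that passed. SLC12A9 belongs to the cation-chloride cotransporters and encodes a protein known to interact with the sodium-potassium-chloride cotransporter of the same family. Its log2 ratio was 1.67 in extraction 1 and, in extraction 2, 2.02 with E47 in Cy3 and 1.88 with E47 in Cy5. All 3 arrays were thus high, in both dye orientations. The mean was 1.81 ± 0.11 (moderated SE, n = 2 extractions), which is 3.50-fold higher in E47 cells, with a limma adjusted p of 0.0194. A single clone, spotted as a pair, measured the gene, and the pair of spots differed by less than 0.1 on every array.

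The 2 transporting relatives of SLC12A9 on the array had ratios below 0. SLC12A2, the sodium-potassium-chloride cotransporter, gave −0.49 in extraction 1 and −0.22 and −0.14 in the Cy3 and Cy5 arrays of extraction 2, with a mean of −0.34 and an adjusted p of 0.153. SLC12A4, a potassium-chloride cotransporter, gave −0.58, −0.22 and −0.29 in the same order, with a mean of −0.42 and an adjusted p of 0.117. Both were below 0 on every array and neither passed the test. The difference between them and SLC12A9 was not tested. The remaining ion carriers lay between −0.12 and 0.72. The highest of these was the sulfate transporter SLC26A2, which gave 1.05 in extraction 1 and 0.055 and 0.70 in the Cy3 and Cy5 arrays of extraction 2, with an adjusted p of 0.110. Its relative SLC26A3, a chloride-bicarbonate exchanger, gave 0.36, 0.36 and 0.30, with an adjusted p of 0.0956. SLC26A2, SLC26A3 and other members that no rule selected, named here and below, were chosen after their values were seen.

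Of the 9 genes of the SLC25 family, the mitochondrial carrier family, 1 rose and 1 fell, against 5.34% and 3.85% of all named genes. SLC25A17 of this family encodes a peroxisomal carrier. SLC25A32 encodes the carrier linked to folate and flavin transport into mitochondria. It gave 1.07 in extraction 1 and 0.75 and 0.77 in the Cy3 and Cy5 arrays of extraction 2. The mean was 0.92 ± 0.12 (moderated SE, n = 2), which is 1.89-fold higher, with a limma adjusted p of 0.0360. It was above 0.7 on all 3 arrays. Its 5 spots, all of 1 clone, ran from 0.78 to 1.26 in extraction 1, and with their median in place of the mean the adjusted p was 0.0536.

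SLC25A3, the mitochondrial phosphate carrier that supplies ATP synthase with phosphate, was the lowest member. It gave −1.07 in extraction 1 and −2.03 and −0.98 in the Cy3 and Cy5 arrays of extraction 2. The mean was −1.29 ± 0.14 (moderated SE, n = 2), a 2.44-fold lower level in E47 cells, with a limma adjusted p of 0.0297. Every array was near or below −1, and the Cy3 array was lower than both others. After each array was scaled to the same spread, the adjusted p was 0.0706.

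The other 7 genes of the family did not pass. The highest was SLC25A46, an outer membrane protein of mitochondrial dynamics, which gave 0.92 in extraction 1 and −0.089 and 0.60 in the Cy3 and Cy5 arrays of extraction 2, with an adjusted p of 0.142. The lowest was SLC25A25, a carrier that exchanges ATP-magnesium for phosphate, at −0.48, −0.27 and −0.40, with a mean of −0.41 and an adjusted p of 0.0846. Its values were alike on all arrays, and those of SLC25A46 were below 0 on the Cy3 array alone. The class median was −0.031.

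Against 5.34% of all named genes, 1 of 10 carriers of metals rose, the zinc transporter SLC30A6. It encodes a Golgi protein that is known to work as a heterodimer with the SLC30A5 protein, supplying zinc to enzymes of the secretory pathway. Its values were 0.86 in extraction 1 and 0.88 and 1.03 in the Cy3 and Cy5 arrays of extraction 2, so the arrays lay close together. The mean was 0.91 ± 0.09 (moderated SE, n = 2), which is 1.87-fold higher, with a limma adjusted p of 0.0251.

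SLC30A5 itself had ratios below 0, at −1.33 in extraction 1 and −0.025 and −0.59 in the Cy3 and Cy5 arrays of extraction 2. The arrays differed by more than the mean of −0.82, and the adjusted p was 0.149. SLC30A3, a vesicular zinc transporter of neurons, gave −0.57, −0.071 and −0.39, with an adjusted p of 0.129. SLC30A6 was above 0 and both relatives below 0 on every array, but the difference among them was not tested. Of the SLC39 family, which brings zinc into the cytosol, none of 3 passed: SLC39A1 was highest, at 0.21, and SLC39A14 lowest, at 0.021.

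The copper and iron carriers did not pass. SLC31A2, a relative of the copper uptake transporter SLC31A1, gave 0.45 in extraction 1 and 0.67 and 0.44 in the Cy3 and Cy5 arrays of extraction 2, with a mean of 0.51 and an adjusted p of 0.0590. Its clones disagreed: 1 clone averaged −0.051 and the other 1.06, and each kept its sign on all arrays. The higher clone gave 0.95, 1.37 and 0.98. Which clone follows the dog transcript is not known from these files. SLC31A1 gave 0.10, 0.11 and −0.74, and SLC40A1, the iron exporter ferroportin, gave 0.69, 0.26 and 0.38, with an adjusted p of 0.0997. The metal ion importer SLC11A2 was at −0.099.

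**Figure D3:**
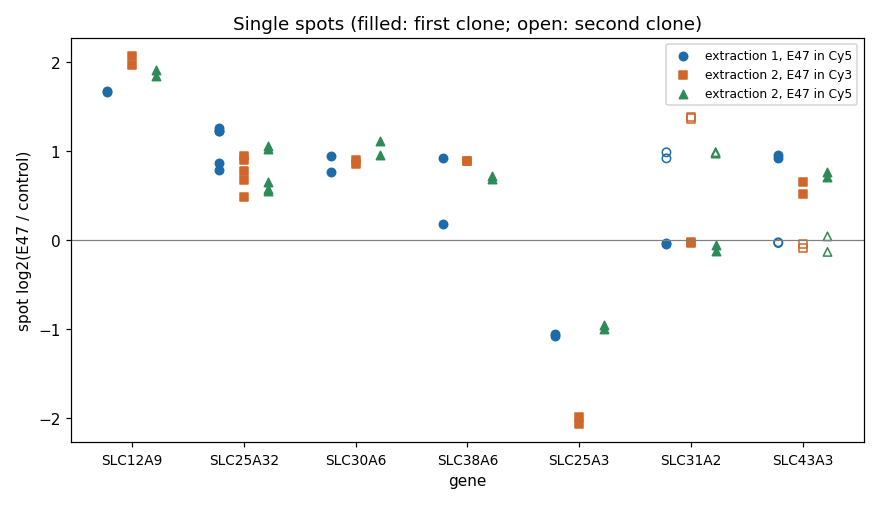
Log2 ratio of E47 over control (y axis) of every single spot of the 5 genes that passed, SLC31A2 and SLC43A3 (x axis), with 1 symbol per array and open symbols for a second clone. The spots of SLC12A9 and SLC25A3 lie close together within each array, while the clones of SLC31A2 and of SLC43A3 are apart on all 3 arrays.

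The families of amino acid, peptide and amine carriers held 14 genes, of which 1 rose, against 5.34% of all named genes. The pseudogene SLC6A10P and the nucleobase transporter SLC43A3 are counted there by their family numbers. SLC38A6, a member of the sodium-coupled neutral amino acid transporter family, gave 0.55 in extraction 1 and 0.89 and 0.70 in the Cy3 and Cy5 arrays of extraction 2. The mean was 0.67 ± 0.10 (moderated SE, n = 2), which is 1.60-fold higher in E47 cells, with a limma adjusted p of 0.04995. This lies at the edge of the threshold. The pair of spots gave 0.92 and 0.18 in extraction 1 and near-equal values on the other arrays, and the call was lost under 5 alternatives, at adjusted p-values from 0.0504 to 0.111.

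Other members of this class stayed closer to 0. Of the SLC1 genes left out of the set, SLC1A5 was at −0.96 and passed as lower, and SLC1A4 was at −0.43 and did not pass. Among the SLC1 members, all glutamate transporters, SLC1A1 was highest, at 0.42, 0.077 and 0.48 with a limma adjusted p of 0.104. The lowest was SLC1A3, at −0.16. SLC1A2, a further glutamate transporter, was at 0.20. In the SLC6 family of sodium- and chloride-dependent transporters, SLC6A16 was highest, at 0.14, and the creatine transporter SLC6A8 lowest, at −0.27. SLC6A8 was even across arrays, at −0.27, −0.22 and −0.33, with an adjusted p of 0.129. SLC7A9, a light chain of the kidney cystine transporter, gave −0.73, −0.070 and −0.35, with a limma adjusted p of 0.148. Its 4 spots, all of 1 clone, ran from −1.33 to −0.13 in extraction 1. SLC3A2, the heavy chain that carries several other light chains to the plasma membrane, was at −0.055. The purine nucleobase transporter SLC43A3 averaged 0.38, with an adjusted p of 0.0972, from clones at 0.80 and −0.045. The pair of SLC6A8 clones gave −0.30 and −0.25, so clones of that gene were alike and those of SLC43A3 were not.

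No sugar carrier in the set passed with limma. An unadjusted p under 0.05 was reached by 3 of the 8, against 35.6% of all named genes. Averaged over clones, 7 of the 8 were below 0 on every array. SLC2A2 and SLC2A8 are among these, though the clones of each had means of opposite sign. Being below 0 on every array held for 1805 of all 5508 named genes, and the share is a description of these arrays with no test. The median was −0.29, with medians of −0.35 in extraction 1 and −0.087 and −0.19 in the Cy3 and Cy5 arrays of extraction 2. The lowest was SLC2A9, a urate transporter of the glucose transporter family, at −0.67, −0.19 and −0.75 with a mean of −0.57 and an adjusted p of 0.0582. SLC2A5, the fructose transporter, gave −0.57, −0.19 and −0.68 with a mean of −0.50 and an adjusted p of 0.0629. Both its clones were below 0 on all arrays. The SLC2A5 symbol is not in the dog gene table, so the dog transcripts that these human clones bound are not known. Values on the Cy3 array were nearer 0 than those on the Cy5 arrays for both genes.

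The insulin-responsive glucose transporter SLC2A4 was the highest of its family, at −0.057, and the only sugar carrier not below 0 on all arrays. SLC2A2, the glucose transporter of liver and kidney tubule, averaged −0.30, with clones at 0.033 and −0.64. The clone at 0.033 gave 0.205, −0.816 and 0.538, so its arrays disagreed in sign. Averaged over clones, SLC2A2 was at only −0.011 on the Cy5 array of extraction 2. SLC2A8 averaged −0.12, with clones of opposite sign. SLC45A1 at −0.31 was also below 0, as were SLC37A3 at −0.28 and SLC37A1 at −0.093, from the family named for sugar phosphate carriers. The family members left out of the set, SLC2A1 and SLC2A3, were at −1.75 and −1.04 and passed.

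**Figure D4:**
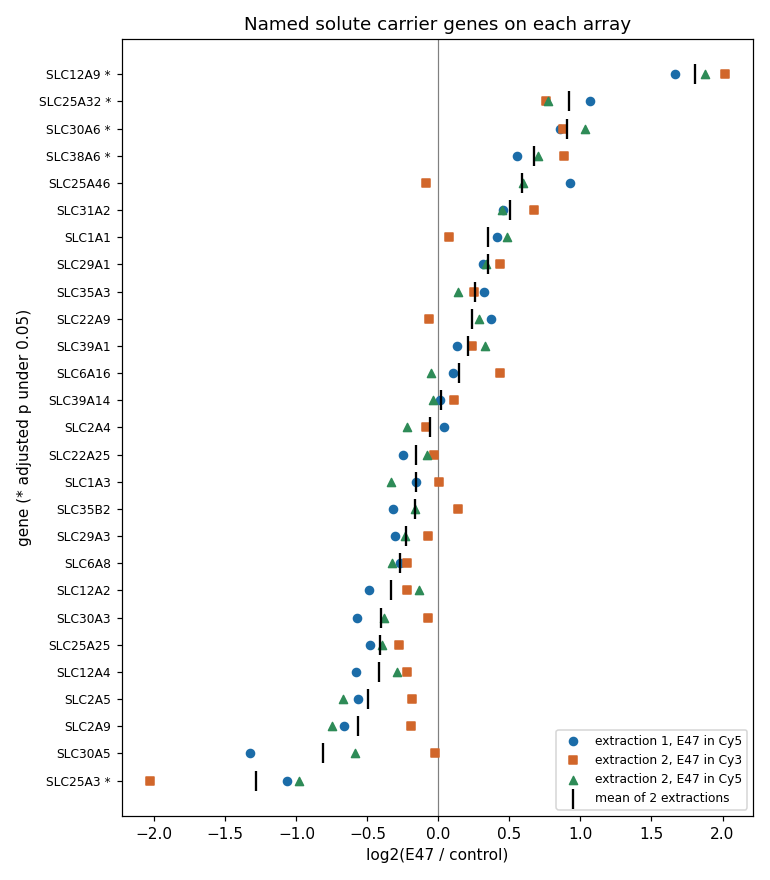
Log2 ratio of E47 over control (x axis) on each of the 3 arrays for the 27 solute carrier genes named by rule (y axis), with black bars for the mean of the 2 extractions and an asterisk for genes that passed. The symbols of SLC12A9 and SLC30A6 lie close together, while the Cy3 array stands apart for SLC25A3 and SLC25A46 and the 3 arrays of SLC30A5 are spread out.

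Carriers of nucleosides and nucleotide sugars stayed near 0. None of 10 passed with limma, and they ran from −0.26 to 0.35. An unadjusted p under 0.05 was reached by 3 of them, against 35.6% of all named genes. SLC29A1, the equilibrative nucleoside transporter of the plasma membrane, was highest, with even values of 0.31, 0.43 and 0.33 and an adjusted p of 0.0980. SLC29A3, its lysosomal relative, was lowest of that family, at −0.23. In the SLC35 family, the UDP-N-acetylglucosamine transporter SLC35A3 was at 0.26 and the sulfate donor transporter SLC35B2 at −0.17. SLC33A1, the acetyl-CoA transporter of the endoplasmic reticulum, was at −0.26, with both clones below 0.

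None of the 11 genes in the families for vitamins, lipids and organic ions passed with limma. An unadjusted p under 0.05 was reached by 1 of them, against 35.6% of all named genes. In the SLC22 family of organic ion transporters, SLC22A9 was highest, at 0.24, and SLC22A25 lowest, at −0.16. Neither symbol is in the dog gene table, so the dog transcripts that these human clones bound are not known, and the 3 clones of SLC22A25 ranged from −0.69 to 0.31. The organic anion transporter SLC22A6, a marker of the proximal tubule, was at 0.10. The fatty acid transport protein SLC27A4 was even, at −0.41, −0.30 and −0.38, with an adjusted p of 0.0866, and the choline transporter SLC44A1 was at 0.23.

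The largest mean in that class belonged to SLC18B1, a vesicular polyamine transporter, and the arrays disagreed on it. It gave 1.98 in extraction 1 and −0.20 and 0.86 in the Cy3 and Cy5 arrays of extraction 2, with an adjusted p of 0.172. It was therefore high on both arrays with E47 in Cy5 and below 0 on the array with E47 in Cy3. In all, 20 of the 77 members (26.0%) were opposite in sign on the Cy3 array to both Cy5 arrays, against 20.4% of all named genes. Dye and array cannot be told apart here, since only 1 array had E47 in Cy3.

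**Figure D5:**
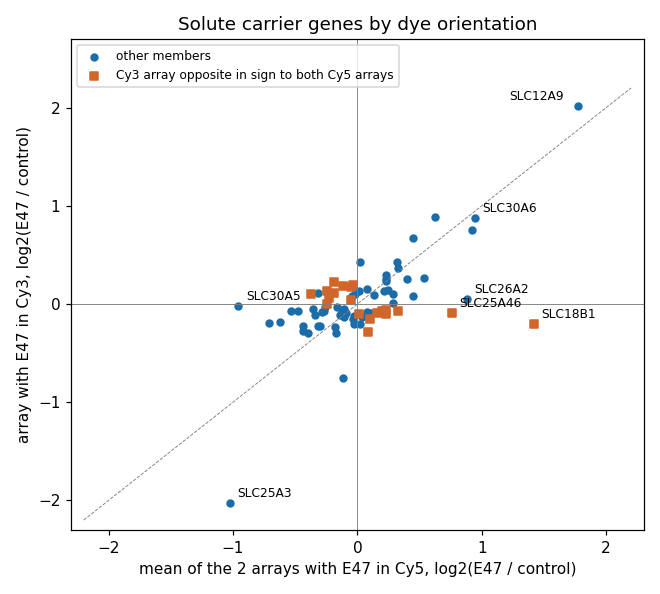
Log2 ratio of E47 over control on the array with E47 in Cy3 (y axis) against the mean of the arrays with E47 in Cy5 (x axis) for the 77 solute carrier genes, with squares for the 20 genes whose Cy3 array is opposite in sign to both Cy5 arrays; the dashed line marks equal values. SLC18B1 and SLC25A46 are the squares farthest from 0, and SLC12A9, SLC30A6 and SLC25A3 lie on the same side of 0 in both orientations.

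Of 26 listed genes for proteins that anchor, modulate or energise carriers 13 were measured, of which 2 rose, 2 fell and 9 did not pass, with a median of −0.11. Among all named genes 9.19% passed. MSN, moesin, which links membrane proteins to cortical actin, was at 1.25 and ATP1B1, the beta subunit of the sodium pump, at 0.87, with adjusted p-values of 0.0356 and 0.0269. FXYD3, a small modulator of the sodium pump, was at −1.65 and SGK1, a kinase that stimulates epithelial ion transport, at −0.90, with adjusted p-values of 0.0233 and 0.0442. ATP1B1 gave 0.81, 1.23 and 0.62 across the arrays and FXYD3 gave −1.42, −1.91 and −1.83, so both kept their sign on each. Without the Cy5 array of extraction 2, 1 of the 13 passed.

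Of 18 listed transcription factors that regulate carrier genes 11 were measured, and 1 rose and 3 fell. The share of all named genes that passed was 9.19%. HIF1A, the hypoxia factor, was the gene that rose, at 0.93. ATF4, which drives amino acid transporter genes, was at −1.69, KLF4 at −1.15, and SREBF1, a factor of lipid synthesis, at −0.91, although its Cy3 array was above 0, at 0.14. MTF1, the zinc-sensing factor, was at −0.12 with an adjusted p of 0.390. Of the 21 measured genes of the ABC transporters, the family of ATP-driven pumps, 3 rose and none fell. Among all named genes 5.34% were higher and 3.85% lower. The ABC genes that rose were ABCB1, the multidrug efflux pump P-glycoprotein, at 1.22, the cholesterol exporter ABCA1 at 0.68 and ABCC12 at 0.63. Of the other 18 genes, 4 had an unadjusted limma p under 0.05, with means above 0 for ABCB4 and ABCE1 and below 0 for ABCG8 and ABCC8. The Cy3 array of ABCG8 was above 0, at 0.075. At that unadjusted threshold the share of all named genes was 35.6%, those that passed included. Without the Cy5 array of extraction 2, the 3 ABC genes lost their calls and 1 of the 11 transcription factors passed.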

How the data were processed

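The authors deposited log ratios, read here as log2, in 1 column for each array. How they corrected background and normalized, which log base they used and which way the ratio runs are not stated in the labels or the table. Column medians were −0.0051, 0.0027 and 7.67e-04. The largest value, 7.80, is above 4.82, the log10 of a 16-bit scanner's range, so base 10 is unlikely. It is not excluded, because the background correction and normalization are not known. The arrays correlated positively, the dye swap included, and no sign was turned. Of 27648 spots, 25537, 25282 and 24771 had a value, and the number of arrays limits the precision. Signal intensities were not used here.

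Values were averaged per symbol over spots measured on every array (197 spots for the members; 68 of the 77 members had 1 clone). Symbols are those of the platform annotation; 67 of 77 are in the dog table of assembly UU_Cfam_GSD_1.0. The dye swap was averaged, leaving 2 replicates and 1 residual degree of freedom, and the control RNA was treated as a shared reference, so its own spread is not in the test. All 14008 features (8500 of them unnamed spots) were tested against 0 in limma 3.58.1 (R 4.3.3; lmFit, then eBayes), and p-values were adjusted by the Benjamini-Hochberg method at a threshold of 0.05. The test was tried on simulated data. The moderated SE leaves out the spread between spots, clones and dyes.

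Named members are those that passed with 1 sign on all arrays or reached 2-fold on each, the highest and lowest non-passing member of each family with 3 or more members, and the 3 nearest the threshold. Of each other list, up to 6 members that passed are named. Members and lists were chosen with earlier results of these data known. Figures were drawn with matplotlib 3.10.9.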

Additional observations from a re-analysis of the deposited data

How the results depend on the processing

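The member counts moved with several choices, the 4 higher and 1 lower genes of the main setting being the base. With the 3 arrays taken as independent there were 7 higher and 3 lower, with named genes tested alone 8 and 5, and at an adjusted p under 0.10 there were 9 and 5. With the median over spots 2 were higher, and with scaled arrays none (0) was lower. Leaving out 1 array of the dye swap gave between 1 and 8 higher and between 0 and 3 lower members; the counts of 1 and 0 came without the Cy5 array. The cause was not tested. With named genes tested alone, fewer features enter both the eBayes step and the adjustment, and these were not told apart. Over all named genes the counts were 560 higher and 448 lower with independent arrays, 624 and 551 with named genes alone, 653 and 591 at 0.10, and between 74 and 448 higher and 35 and 471 lower with 1 array of the dye swap left out. Without the Cy5 array the adjusted p was 0.0906 for SLC25A3, 0.0736 for SLC25A32, 0.0587 for SLC30A6 and 0.111 for SLC38A6. Partner genes that passed numbered 2 with scaled arrays and between 1 and 3 with 1 array of the dye swap left out, and regulators between 1 and 4. ABC transporters numbered 5 with independent arrays, 6 with named genes alone, 6 at 0.10 and between 0 and 5 with 1 array left out. Robust eBayes kept all 5 member calls. Leaving out the 2 members that are no carriers, an alternative chosen after seeing the data, kept both counts. Read as natural logarithms, 4 members would be at 2-fold on every array. No member carried the symbols SLC9A3R1 or SLC9A3R2, so leaving them out changed nothing. Extraction 2 alone allows no test. Each ratio already sets E47 against control on the same array, and no further pairing was made.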

Other observations

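Of the 10 members without a value on all 3 arrays, SLC10A2, SLC39A8, SLC66A2 and SLC71A2 had none. SLC25A5, a mitochondrial ADP/ATP carrier, gave 0.49 and 0.27 on the Cy5 arrays of extractions 1 and 2, and SLC38A9, a lysosomal amino acid sensor, gave 0.75 and 0.35. SLC25A14 gave 0.15 and 0.14, and SLC35G2 gave 0.53 and −0.062, on the same arrays. SLC25A1, the mitochondrial citrate carrier, gave −0.49 in extraction 1 and 0.38 on the Cy3 array of extraction 2. The pyrimidine nucleotide carrier SLC25A33 gave −0.68 on that Cy3 array alone. None of these entered a test. Spots annotated to both COL18A1 and SLC19A1, the folate carrier, averaged −0.30, 0.0056 and −0.15 over the 3 arrays, and whichever transcript they bound, they were not counted as a member.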
